A study of Mus musculus with 4 samples.

Results

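Polycomb proteins keep developmental genes silent through a pair of chromatin-modifying complexes. Polycomb repressive complex 2 (PRC2) methylates lysine 27 of histone H3, and PRC1 attaches ubiquitin to histone H2A and compacts chromatin. Both come in several forms, because each catalytic core joins 1 of several alternative partners, and in mouse embryonic stem cells they hold lineage genes in a repressed state from which they can still be switched on. The transcripts of 31 subunit genes, listed by name, were followed here among the 45706 genes of the count table. All 31 were found by symbol and all 31 passed the filter on low counts, as did 18005 genes in all.

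RNA came from V6.5, a mouse embryonic stem cell line grown on irradiated feeder cells with serum, LIF and inhibitors of MEK and GSK3. The cells had been infected with a lentivirus that carries Cas9 and GFP behind a doxycycline-inducible promoter, the rtTA activator, puromycin resistance, and guide RNAs against either KLF4 alone or KLF2, KLF4 and KLF5 together. Clonal populations were picked. The 0 h group (2 libraries, replicates A and B, genotype given as KLF WT) received no doxycycline, and the 24 h group (2 libraries, A and B, genotype KLF KO) received it for 24 h. The titles of all 4 libraries begin with TKO, those at 24 h also name a KLF4 KO, and the descriptions give both guide sets as alternatives, so which set each library carried is not settled. Nor do the labels say whether the 0 h cells are the same clones without the drug, or whether A and B are separate clones. Doxycycline, Cas9 cutting, KLF loss and time therefore cannot be told apart.

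Libraries held 46031578 to 52412844 counts. The targeted genes gave no transcript-level check of the labels: Klf2, Klf4 and Klf5 had log2 fold changes of -0.25, -0.29 and -0.72, with adjusted p of 0.58, 0.223 and 0.0567 in edgeR (quasi-likelihood, Benjamini-Hochberg). Stem cell markers were abundant in all libraries: Pou5f1 was at 527.4 to 845.2 CPM, Nanog at 917.7 to 1240 CPM and Esrrb at 661.6 to 853.9 CPM. CPM is a count rate in which TMM scaling puts all libraries on 1 depth. Of 8 such markers 2 fell (Pou5f1 and Zfp42), against 2.65% of all genes tested, and 6 did not pass. An unadjusted p under 0.05 in edgeR was found for 4 of the 8, against 25.8% of all genes. The summed level of 14 feeder fibroblast markers was 2191 to 2833 CPM at 0 h and 2159 to 2228 CPM at 24 h, of which Fn1 alone gave 1988 to 2611 CPM. Col1a1 was at 59.63 to 90.08 CPM, Dcn at 0.1186 CPM or less, and Lum at 0 in 3 of the 4 libraries. Of these 14, 10 were tested and 1 fell (Pdgfrb), against 2.65% of all genes. The part of feeder RNA in the results was not tested.

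Most polycomb transcripts lay near their 0 h level, and few passed the test. Phf19, an accessory subunit of PRC2, rose. Cbx2 and Cbx8, chromodomain subunits of canonical PRC1, fell. In bulk RNA, fewer cells that express a gene and less RNA per cell cannot be told apart. The other 28 did not pass edgeR's test, with log2 fold changes from -0.44 to 0.24, and 20 of the 31 lay within 0.2 log2 units of no change. Thus 1 of 31 was called higher and 2 lower, 9.68% of the list, against 6.8% of all genes tested (4.15% higher, 2.65% lower). Before adjustment, p was under 0.05 for 8 of 31, or 25.8%, against 25.8% of all genes. The members had a median log2 fold change of -0.05, all genes one of -0.01. By position of the libraries, 12 members (38.7%) had both 24 h values below both 0 h values, and 4 (12.9%) above, against 29.5% and 29.3% of all genes. In this fit, the members' shares called in either direction and nominally significant were thus close to those of the whole table. Some other fits, given below, called more members or none.

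**Figure D1:**
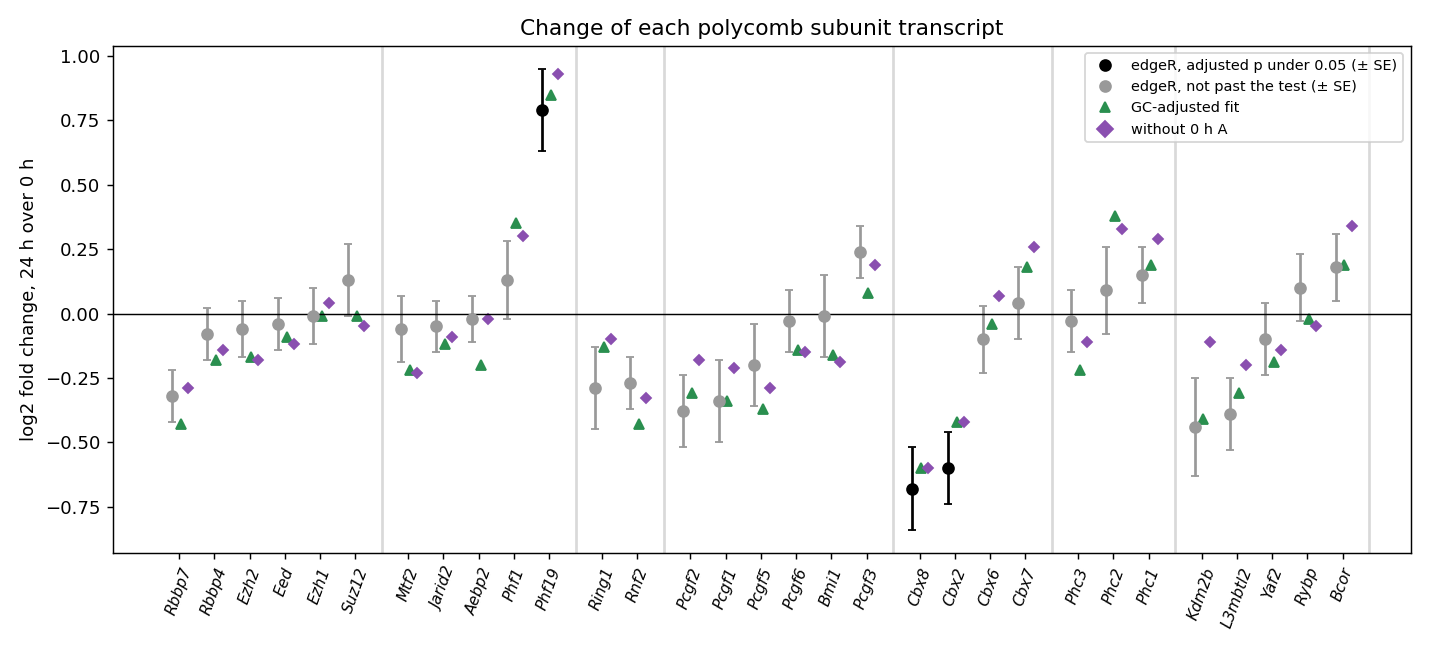
Log2 fold change (24 h over 0 h) of the 31 polycomb subunits, grouped from left to right as PRC2 core, PRC2 accessory, E3 ligases, PCGF, CBX, PHC and variant PRC1 subunits. Circles with bars are edgeR estimates ± SE (black past the test), triangles the estimates of the GC-adjusted fit, and diamonds those without 0 h replicate A; Phf19 stands highest (0.79) and Cbx8 lowest (-0.68).

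The 0 h replicates differed from each other in a way that followed base composition, and this touches every fold change given here. Among the 15 members with a transcript GC content of at least 50%, 0 h replicate A was above B in 15, with a median log2 difference of 0.33. Among the 16 members under 50%, A was above B in 2, with a median of -0.16. Over the 31 members the correlation of this difference with GC content was 0.884, and over 17895 genes it was 0.495. These are descriptions across genes that share the same libraries. The median absolute log2 difference between replicates over the members was 0.27 at 0 h and 0.05 at 24 h. Kdm2b had the largest gap at 0 h (104.6 CPM in A and 68.84 CPM in B), while Bmi1 leaned the other way (18.17 and 23.85 CPM).

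**Figure D2:**
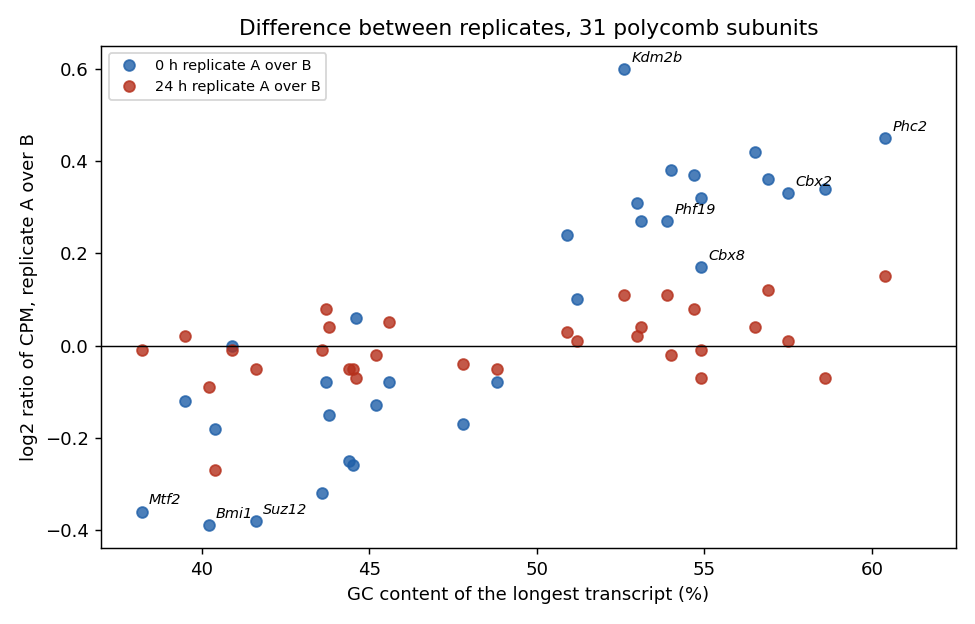
Log2 ratio of CPM in replicate A over replicate B (vertical) against GC content of the longest transcript in percent (horizontal) for the 31 polycomb subunits, blue for 0 h and red for 24 h. Blue points climb with GC content, from -0.36 for Mtf2 (38.2%) to 0.45 for Phc2 (60.4%). The lowest and highest blue points are Bmi1 (-0.39 at 40.2%) and Kdm2b (0.60 at 52.6%), while the 24 h points stay within 0.27 of no difference.

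Other fits called more members, or none. In a GC-adjusted fit, which takes a smooth trend on base composition and transcript length out of each library, edgeR called 6 members higher (Phf1, Phf19, Cbx7, Phc1, Phc2, Bcor) and 11 lower (Ezh2, Rbbp4, Rbbp7, Mtf2, Rnf2, Pcgf2, Pcgf5, Cbx2, Cbx8, Kdm2b, L3mbtl2). Those are 19.4% and 35.5% of the list, against 11.7% and 14.3% of all genes in the same fit. Without 0 h replicate A, 7 were higher and 12 lower (all genes 16.5% and 15.8%). Without 0 h replicate B, 5 were higher and 11 lower (23.2% and 27% of all genes). Of the 6 and 11 named for the GC-adjusted fit, 6 and 10 were also called in that direction when 0 h A was dropped. When 0 h B was dropped, 1 and 7 were, while Cbx7 was called lower (-0.15, edgeR adjusted p = 0.00248) and Mtf2 higher (0.13, edgeR adjusted p = 0.00679). Each of these fits keeps 3 of the 4 libraries of the GC-adjusted one, so the shared calls are not a separate check on it. When either 24 h library was dropped, edgeR called 0 of 31 (3 at an unadjusted p under 0.05 each time), against 3.02% of all genes without replicate A and 2.71% without B. DESeq2 called the same 3 members (all genes 5.76% higher and 5.32% lower), and limma voom 1 higher and 0 lower (3.87% and 2.16%; 8 members at an unadjusted p under 0.05). A fit without 1 library takes the lone sample's spread from the other group.

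The core of PRC2 is built from EZH2 or EZH1, the methyltransferases, with EED, which reads the methyl mark, SUZ12, the scaffold, and the histone chaperones RBBP4 or RBBP7. None of these 6 transcripts passed edgeR's test (1 at an unadjusted p under 0.05, 0 in DESeq2 and 0 in limma voom). Ezh2 was at 260.1 and 309.7 CPM at 0 h and 268.9 and 277.9 CPM at 24 h, so the groups overlapped. In the GC-adjusted fit it was called lower by a small margin (-0.17, edgeR adjusted p = 0.0429). Ezh1 was at 51.0 and 47.71 CPM, then 49.23 and 49.04 CPM, nearly level. Eed was at 196.7 and 221.6 CPM, then 200.8 and 207.0 CPM, and also overlapped. Suz12 was low in 0 h replicate A alone, at 368.6 CPM against 455.5 to 479.4 CPM in the other 3 libraries.

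Rbbp7 had the largest difference of the core. It was at 191.9 and 183.7 CPM at 0 h and at 147.4 and 154.3 CPM at 24 h. Both 24 h libraries were below both at 0 h, and the 0 h replicates lay close together. Its log2 fold change was -0.32 (SE 0.10), and edgeR gave an adjusted p of 0.104, and -0.43 in the GC-adjusted fit (edgeR adjusted p = 0.00684). Its close relative Rbbp4 was at 493.7 and 538.8 CPM, then 486.1 and 492.9 CPM, with a log2 fold change of -0.08 (edgeR adjusted p = 0.649) that became -0.18 in the GC-adjusted fit (edgeR adjusted p = 0.022).

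Levels of different genes were compared per kilobase of annotated exon. On this scale Suz12 stood at 85.7 ± 15.8 CPM per kb at 0 h (SD, n = 2), Rbbp7 at 64.6 ± 1.98, Rbbp4 at 59.0 ± 3.65, Eed at 54.6 ± 4.6, Ezh2 at 42.7 ± 5.25 and Ezh1 at 6.63 ± 0.312. Scaled instead to the longest annotated transcript, a choice made after seeing the data, Rbbp4 came first (111 CPM per kb) and Ezh2 (102), Eed (101) and Suz12 (97.0) lay together. The order of the upper 5 therefore depended on the gene model, while Ezh1 was lowest either way (11.7). Of the summed Ezh1 and Ezh2 level per kb, Ezh2 made up 85% and 87.9% at 0 h and 85.9% and 86.3% at 24 h. The methyltransferase transcript was thus mostly Ezh2 in each of the 4 libraries.

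**Figure D3:**
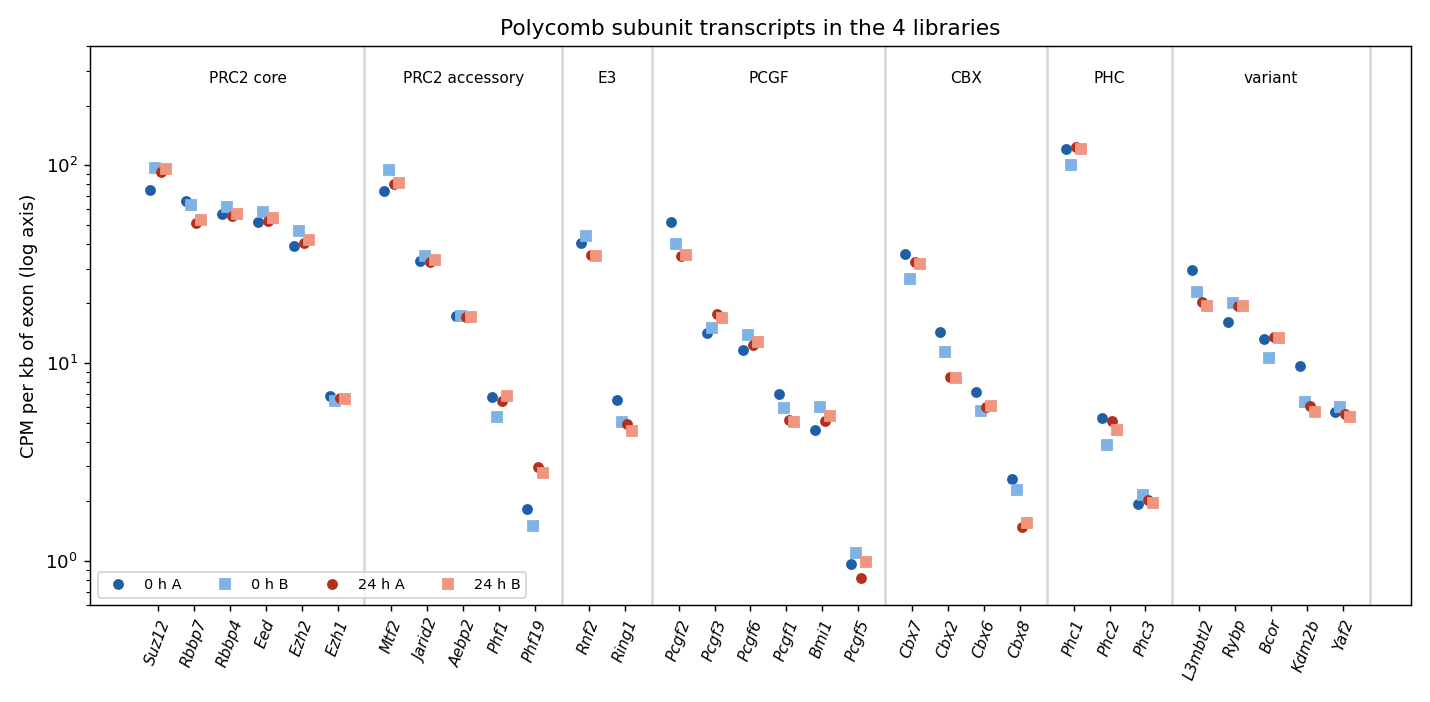
Level of the 31 subunit transcripts in each library as CPM per kb of exon (log axis), ordered by 0 h level within each role; circles are replicate A and squares replicate B, blue at 0 h and red at 24 h. Levels run from 1.04 CPM per kb for Pcgf5 to 110 for Phc1 (0 h means), and Ezh1, Phf19, Ring1, Pcgf5, Cbx8, Phc3 and Yaf2 are each the lowest of their role.

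PRC2 takes 1 of 2 kinds of accessory subunit. The Polycomb-like proteins MTF2, PHF1 and PHF19 bind unmethylated CpG-rich DNA, and JARID2 with AEBP2 defines the other form. Phf19 was the member that rose. It was at 9.192 and 7.613 CPM at 0 h and at 15.03 and 13.98 CPM at 24 h. Both 24 h libraries were above both at 0 h, a 1.73-fold difference (log2 fold change 0.79 with SE 0.16; edgeR adjusted p = 0.0326). The estimate was 0.85 in the GC-adjusted fit and, with 1 of the 0 h libraries dropped, 0.93 (A left out) or 0.65 (B left out). Without 24 h replicate A it was 0.72 (edgeR adjusted p = 0.239), and the call was lost without 24 h replicate B too.

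The rise left Phf19 the scarcest of the Polycomb-like transcripts. Per kb of exon it made up 2.22% and 1.49% of the sum of Mtf2, Phf1 and Phf19 at 0 h, and 3.32% and 3.07% at 24 h. Mtf2 made up 89.6% and 93.2% at 0 h and 89.5% and 89.4% at 24 h. Mtf2 itself was at 419.5 and 538.2 CPM at 0 h and 458.6 and 461.1 CPM at 24 h, with the 24 h values between the 0 h ones. Its log2 fold change of -0.06 (edgeR adjusted p = 0.809) became -0.22 in the GC-adjusted fit (edgeR adjusted p = 0.0109), and 0.13 without 0 h replicate B. Phf1 was at 23.54 and 18.66 CPM, then 22.52 and 23.64 CPM. It went from 0.13 to 0.35 on the log2 scale in the GC-adjusted fit (edgeR adjusted p = 0.0213). Jarid2 (319.9 and 337.8 CPM, then 313.5 and 323.5 CPM) and Aebp2 (170.7 and 170.5 CPM, then 167.4 and 168.8 CPM) were nearly level, with log2 fold changes of -0.05 and -0.02.

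Canonical PRC1 is recruited by CBX proteins, whose chromodomain binds the mark that PRC2 writes. Cbx2 was at 61.06 and 48.41 CPM at 0 h and at 36.31 and 35.94 CPM at 24 h. The groups did not overlap, and Cbx2 was 1.52-fold lower at 24 h (log2 fold change -0.60 with SE 0.14; edgeR adjusted p = 0.0492). Cbx8 was at 9.468 and 8.415 CPM, then at 5.434 and 5.706 CPM, 1.61-fold lower (log2 fold change -0.68 with SE 0.16; edgeR adjusted p = 0.0496). Both calls sat just under the threshold of 0.05. They held in DESeq2 (adjusted p = 0.00455 and 0.0159) and in the GC-adjusted edgeR fit (adjusted p = 0.00353 and 0.00991). They were lost in limma voom (adjusted p = 0.0576 and 0.0543) and without either 24 h library. Without 0 h replicate A, the high one for these GC-rich genes, the log2 fold changes were -0.42 and -0.60.

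Cbx7 and Cbx6, the other CBX members, did not pass. Cbx7 was at 229.9 and 172.4 CPM at 0 h and 210.1 and 204.6 CPM at 24 h, and Cbx6 at 75.9 and 60.96 CPM, then 63.68 and 64.07 CPM. In both, the 24 h values lay between the 0 h ones. The sign of both changes depended on which 0 h library was kept: Cbx7 was at 0.26 without A and -0.15 without B, Cbx6 at 0.07 and -0.25. The GC-adjusted fit called Cbx7 higher (0.18, edgeR adjusted p = 0.0359) and not Cbx6 (-0.04). Cbx2 and Cbx7 have similar GC content (57.5% and 56.5%) but differ in transcript length (3807 and 6057 bases). Their ratio within a library contains Cbx2 and so is not separate from the call on that gene. It was 0.405 and 0.428 per kb at 0 h, and 0.263 and 0.268 at 24 h. The ratio was closer between the 0 h replicates than either gene's CPM, and lower in both 24 h libraries. Of the summed level of Cbx2, Cbx6, Cbx7 and Cbx8, Cbx7 made up 59.6% and 57.8% at 0 h and 66.9% and 66.3% at 24 h, and Cbx2 24.1% and 24.7%, then 17.6% and 17.7%.

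**Figure D4:**
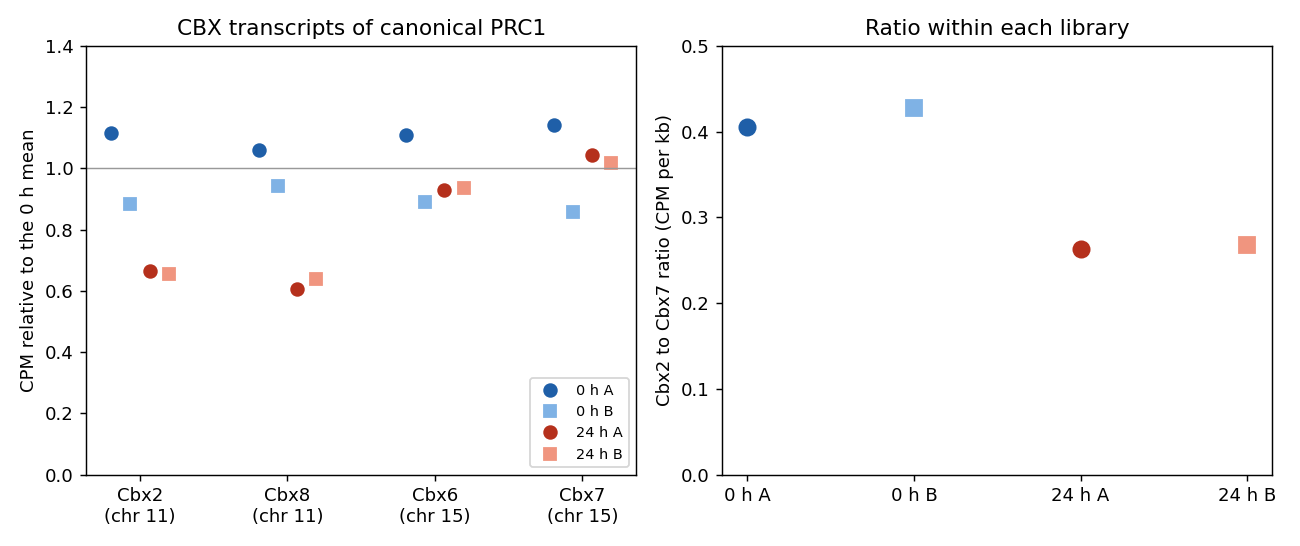
Left, CPM of 4 CBX transcripts in each library relative to the gene's 0 h mean; right, the ratio of Cbx2 to Cbx7 in CPM per kb. Circles are replicate A and squares replicate B. The 24 h points of Cbx2 and Cbx8 lie below both 0 h points, those of Cbx6 and Cbx7 between them, and the ratio is 0.405 and 0.428 at 0 h against 0.263 and 0.268 at 24 h.

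Cbx2 and Cbx8 lie next to each other in the genome. In GRCm38, Cbx2 is on chromosome 11 from 119022962 to 119031270 (plus strand) and Cbx8 from 119036305 to 119040969 (minus strand). Cbx6 and Cbx7 lie together on chromosome 15, from 79823896 to 79834688 and from 79915807 to 79971119.

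Since the perturbed factors bind GC-rich promoter motifs, the bases before the start are shown for the members that were called and had a RefSeq window on GRCm38.p6. Only bases before the gene's first annotated exon are printed, 5′ to 3′ on the gene's strand. Capitals mark GGGNGTGG, a short form of the KLF4 motif, and GGGCGG, the GC box, on either strand.
Cbx8, minus strand, chr11:119040970-119041163: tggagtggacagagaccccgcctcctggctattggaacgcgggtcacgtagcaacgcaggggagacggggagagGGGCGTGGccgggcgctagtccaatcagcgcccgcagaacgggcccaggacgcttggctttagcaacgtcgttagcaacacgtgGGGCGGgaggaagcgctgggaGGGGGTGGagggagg
Phf19, minus strand, chr2:34914027-34914226: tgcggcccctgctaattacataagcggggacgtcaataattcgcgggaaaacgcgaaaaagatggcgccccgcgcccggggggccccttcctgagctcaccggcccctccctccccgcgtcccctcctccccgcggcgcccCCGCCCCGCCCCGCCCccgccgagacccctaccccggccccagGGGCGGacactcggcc
The Cbx8 stretch holds 2 matches to GGGNGTGG and 1 to GGGCGG, and that of Phf19 holds 0 and 4, of which 3 run into each other with shared end bases. No match to one motif overlapped a match to the other. Windows of 250 bases before the RefSeq start were found for 27 of the 31 members, not for Cbx2, Pcgf1, Rybp and Yaf2. GGGNGTGG was in 9 of these 39 windows (23.1%, against 15.9% of 32851 windows of all genes) and GGGCGG in 26 (66.7%, against 32.7%). By gene, 9 and 20 of the 27 members had a match, against 4826 and 9555 of 27025 genes. These sets are unlike, since all members passed the filter on low counts and the wider set was not limited to such genes. Whether the members differ from other expressed genes was not tested. A match is a string in the window, and binding was not measured here.

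The catalytic unit of every PRC1 form is RNF2 or RING1, the ubiquitin ligases. Rnf2 was at 165.8 and 180.6 CPM at 0 h and at 144.9 and 142.7 CPM at 24 h, below in both libraries. Its log2 fold change was -0.27 with SE 0.10 (edgeR adjusted p = 0.155), and -0.43 in the GC-adjusted fit (edgeR adjusted p = 0.00407). Ring1 was at 21.05 and 16.42 CPM, then 15.98 and 14.7 CPM, with a log2 fold change of -0.29 (edgeR adjusted p = 0.3). Per kb, Rnf2 made up 86.1% and 89.6% of the pair at 0 h and 87.7% and 88.4% at 24 h. The pair's makeup thus stayed within the spread of the 0 h libraries.

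The PCGF subunit sets which form of PRC1 is built: PCGF2 and BMI1 (also called PCGF4) occur in the canonical form, and PCGF1, PCGF3, PCGF5 and PCGF6 in variant forms. None of the 6 passed edgeR's test (2 at an unadjusted p under 0.05, 0 in DESeq2 and 0 in limma voom). Pcgf2, the most abundant per kb, was at 182.0 and 140.1 CPM at 0 h and 123.0 and 124.4 CPM at 24 h. Both 24 h values were lower, but the 0 h replicates differed by more than 0 h B differed from 24 h. The log2 fold change was -0.38 (edgeR adjusted p = 0.145), -0.31 in the GC-adjusted fit (edgeR adjusted p = 0.01), -0.18 without 0 h replicate A and -0.56 without B. Pcgf3 leaned the other way, at 135.7 and 143.7 CPM, then 168.9 and 160.2 CPM (log2 fold change 0.24, edgeR adjusted p = 0.192), and at 0.08 in the GC-adjusted fit.

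Pcgf2 made up 57.4% and 48.7% of the summed PCGF level per kb at 0 h and 45.9% and 46.3% at 24 h. Pcgf3 made up 15.8% and 18.4%, then 23.3% and 22.0%. Pcgf6, a subunit of the variant form that acts at germline genes, was at 58.19 and 69.77 CPM, then 61.75 and 63.73 CPM, and overlapped between groups. Bmi1 (18.17 and 23.85 CPM, then 20.27 and 21.54 CPM) overlapped as well. Pcgf1 was at 11.52 and 9.753 CPM, then 8.513 and 8.334 CPM (log2 fold change -0.34, edgeR adjusted p = 0.223). Pcgf5 was at 12.24 and 13.91 CPM, then 10.34 and 12.48 CPM, and the groups overlapped. Pcgf5 was the scarcest member per kb (1.04 ± 0.0937 at 0 h, SD, n = 2), and its log2 fold change of -0.20 became -0.37 in the GC-adjusted fit (edgeR adjusted p = 0.0452).

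The PHC proteins polymerise through their SAM domain and link canonical PRC1 complexes to each other. Phc1 was the most abundant of all 31 members per kb at 0 h. It was at 639.1 and 529.8 CPM at 0 h and at 658.4 and 642.4 CPM at 24 h, with a log2 fold change of 0.15 (edgeR adjusted p = 0.431). Its share of the summed PHC level was 94.3% to 94.9% in the 4 libraries. Phc2 (37.24 and 27.28 CPM, then 36.17 and 32.57 CPM) and Phc3 (33.72 and 37.51 CPM, then 35.36 and 34.28 CPM) overlapped between groups. In the GC-adjusted fit Phc1 and Phc2 were called higher, at 0.19 and 0.38 (edgeR adjusted p = 0.0195 and 0.00864), and Phc3 was not (-0.22, adjusted p = 0.0504). Without 0 h replicate B, Phc2 was at -0.12.

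Variant PRC1 holds RYBP or YAF2 in place of a CBX protein. KDM2B brings the PCGF1 form, which also contains BCOR, to CpG islands, and L3MBTL2 belongs to the PCGF6 form. None of these 5 transcripts passed edgeR's test (1 at an unadjusted p under 0.05, 0 in DESeq2 and 0 in limma voom). L3mbtl2 was at 175.2 and 135.3 CPM at 0 h and 121.3 and 115.1 CPM at 24 h (log2 fold change -0.39, edgeR adjusted p = 0.137). Kdm2b was at 104.6 and 68.84 CPM, then 66.17 and 61.33 CPM (log2 fold change -0.44, edgeR adjusted p = 0.197). The log2 fold change of Kdm2b was -0.11 without 0 h replicate A and -0.72 without B.

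In the GC-adjusted fit, L3mbtl2 (-0.31) and Kdm2b (-0.41) were called lower and Bcor (0.19) higher (edgeR adjusted p = 0.00627, 0.0347 and 0.0436). Bcor was at 114.4 and 92.28 CPM, then 117.7 and 115.8 CPM. Rybp was at 76.16 and 94.95 CPM, then 91.35 and 92.04 CPM (log2 fold change 0.10). Yaf2 was the lowest of these per kb, at 5.66 and 6.00 CPM per kb, then 5.52 and 5.34, with a log2 fold change of -0.10. Rybp made up 74.0% and 77.0% of the pair per kb at 0 h and 77.7% and 78.4% at 24 h. Exons of Kdm2b, L3mbtl2 and 11 other members overlap another annotated gene, Ezh2, Eed, Suz12, Rbbp4, Rbbp7, Mtf2, Phf1, Rnf2, Pcgf5, Cbx6 and Cbx7. The strand setting of the counting is not given in the sources used here, so their counts are uncertain. Phf19, Cbx2 and Cbx8 have no such overlap.

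Of 24 other subunits and partners of the complexes, 0 rose, 1 fell (4.17%, against 2.65% of all genes) and 23 did not pass, with a list median of -0.13. The gene that fell was Wdr5, a WD-repeat protein of the PCGF6 form of PRC1 and also of the MLL methyltransferase complexes. It was at 623.9 and 597.3 CPM at 0 h and at 392.6 and 396.9 CPM at 24 h (log2 fold change -0.63 with SE 0.09; edgeR adjusted p = 0.0137). The 0 h replicates lay close together and both were well above the 24 h values. The 23 others had log2 fold changes from -1.07 to 0.29. The lowest was Epop, just over the threshold (edgeR adjusted p = 0.0501). It was at 247.1 and 136 CPM at 0 h and at 91.63 and 91.31 CPM at 24 h. DESeq2 called 2 of the 24 lower and limma voom 1, against 5.32% and 2.16% of all genes. In the GC-adjusted fit, 8 of the 24 were lower (33.3%, against 14.3% of all genes) and 0 higher (against 11.7%).

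A further 22 genes have products that oppose polycomb. These are demethylases of lysine 27 of histone H3, deubiquitinases of H2A with their partners, and methyltransferases of the trithorax side with theirs. Of the 22, 0 passed edgeR's test and 5 had an unadjusted p under 0.05 (22.7%, against 25.8% of all genes). DESeq2 called 2 lower and limma voom 0, against 5.32% and 2.16% of all genes. The log2 fold changes of the 22 ran from -0.64 to 0.28, with a median of -0.04. In the GC-adjusted fit, 8 were called lower (36.4%, against 14.3% of all genes) and 0 higher (against 11.7%).

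Most genes on the lists of known polycomb targets in embryonic stem cells were at a few CPM or less, with exceptions. Of 39 Hox genes, 28 passed the filter, 9 of them under 1 CPM at 0 h. None passed edgeR's test, and DESeq2 and limma voom called 0. An unadjusted p under 0.05 was found for 3 of the 28, against 25.8% of all genes. The highest, Hoxc13, averaged 30.23 CPM at 0 h, against a median of 1.27 CPM. The summed Hox level was 84.21 and 86.6 CPM at 0 h and 81.91 and 83.3 CPM at 24 h, a difference of a few CPM. Hoxb1 had 0 counts in every library, so that its level could be as high as 0.0572 to 0.0652 CPM (3 counts, for counting error only).

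Of 40 other developmental regulators, 32 passed the filter, with 14 under 1 CPM and 7 above 10 CPM at 0 h. The highest were Olig2, a neural factor, at 43.53 and 39.01 CPM at 0 h and 39.93 and 39.17 CPM at 24 h, and Cdkn2a, a cell cycle inhibitor, at 42.83 and 30.8 CPM, then 30.59 and 30.64 CPM. Of the 32, 1 was called higher (3.12%, against 4.15% of all genes), 3 lower (9.38%, against 2.65%), and 28 did not pass. Before adjustment, p was under 0.05 for 15 (46.9%, against 25.8% of all genes). That count includes genes that passed the filter through 1 group only. Tbx15, a T-box factor, fell from 12.57 and 12.14 CPM to 6.621 and 6.817 CPM (log2 fold change -0.88, edgeR adjusted p = 0.0184). The homeobox gene Msx1 fell from 2.234 and 2.222 CPM to 0.805 and 0.7479 CPM (-1.52, edgeR adjusted p = 0.0184). The other 2 calls are of genes that passed the filter through 1 group only, where they had to be higher, and they are given as values. Tbx5 had 27 and 31 counts at 0 h and 4 and 5 at 24 h. Nkx2-2, a neural homeobox gene that overlaps Nkx2-2os on the other strand, had 10 and 8 counts at 0 h and 35 and 33 at 24 h. The list's median log2 fold change of -0.43 was -0.11 in the GC-adjusted fit, when 4 were called higher and 8 lower (12.5% and 25%, against 11.7% and 14.3% of all genes). The median was -0.15 with 0 h A dropped and -0.56 with 0 h B dropped, so its size depended on which 0 h library was kept. Of the 32, 2 were over the filter's limit in the 0 h libraries only and 2 in the 24 h libraries only. A further 8 genes of the list were not tested, so this median does not describe all 40.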

How the data were processed

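Poly(A) RNA of 4 libraries was sequenced with a stranded kit as single 50 nt reads, per the labels. The authors deposited unnormalized read counts for each Ensembl gene. TopHat2, HTSeq, DESeq and mm10 appear, without versions or roles, in the submitters' processing notes. Annotation release and strand setting: not given in the sources used here.

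GENCODE M21 (GRCm38) supplied symbols, positions, exon lengths and GC content, with no match for 563 identifiers. Genes were kept with filterByExpr (minimum count 10, minimum total 15), scaled by TMM and tested with the quasi-likelihood method of edgeR 4.0.16 (R 4.3.3, legacy=TRUE, 2-sided, Benjamini-Hochberg over 18005 genes, threshold 0.05). The test was checked on simulated data. The p-values measure the spread between samples that the series calls biological replicates. Alternatives were other scalings and filters, DESeq2 1.42.0, limma 3.58.1 voom, the replicate letter as a block, each library left out, and a GC-adjusted fit. In that fit a smooth trend on GC content and transcript length (mgcv 1.9.3) was taken from each library's log2 deviation from the mean of all libraries. Because that mean includes both groups, any GC trend between them is removed as well.

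The members, roles and lists were chosen with earlier results of these data known. All 31 members are given. Values in every library are printed for those past the test, for the highest and lowest per kb in a role, for those whose call differed in DESeq2, the block or the GC-adjusted fit, and for some further members. From other lists, up to 4 genes past the test in each direction are named, and some others for their level or as the end of a range. One gene of the list of other subunits and partners is not reported here and is left out of that list's counts. Promoter windows came from RefSeq on GRCm38.p6.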

Additional observations from a re-analysis of the deposited data

How the results depend on the processing

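As reported, 1 member was higher and 2 were lower, among 1225 genes called. DESeq2 called 1994 genes, and the same 3 members. Without a filter beyond 1 count, 2589 genes, 1 higher member and 4 lower ones were called (4.61% and 5.10% of all genes higher and lower). The GC-adjusted fit called 4690 genes (6 members higher, 11 lower), and with the replicate block 6066 (6 and 14, against 15.0% and 18.7% of all genes). Library size and limma voom each called 0 members lower (7 and 8 members at an unadjusted p under 0.05; 2.39% and 2.16% of all genes lower), and upper quartile scaling 1 (2.51%). Leaving out each library in turn gave 506 to 9416 genes, 0 to 7 members higher and 0 to 12 lower. The labels do not tie the letters A and B to clones, and the correlation of the A libraries' deviations was 0.062; the replicate block left 1 member higher and 5 lower (Pcgf2, Cbx2, Cbx8, Kdm2b and L3mbtl2) among 3253 genes (9.21% and 8.86% of all tested higher and lower). The cause of these moves was not tested.

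Some small changes altered sign. By library size these were Aebp2 (0.04), Bmi1 (0.05), Eed (0.02), Ezh1 (0.05), Jarid2 (0.01), Pcgf6 (0.03) and Phc3 (0.02), and by upper quartile Aebp2 (0.02), Bmi1 (0.03), Eed (0.01), Ezh1 (0.04), Pcgf6 (0.01) and Phc3 (0.01). Bmi1 was at 0.01 in voom and 0.00 with the block. In the GC-adjusted fit, with or without the block, Rybp was at -0.02 and Suz12 at -0.01. Leaving out libraries gave -0.19 to 0.20 for Bmi1, -0.25 to 0.07 for Cbx6, -0.15 to 0.26 for Cbx7, -0.12 to 0.05 for Eed, -0.06 to 0.04 for Ezh1, -0.18 to 0.07 for Ezh2, -0.23 to 0.13 for Mtf2, -0.15 to 0.10 for Pcgf6, -0.12 to 0.33 for Phc2, -0.11 to 0.04 for Phc3, -0.03 to 0.30 for Phf1, -0.05 to 0.26 for Rybp and -0.05 to 0.33 for Suz12. None of these 15 members was called as reported.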
